A study of Mus musculus with 4 samples.

Results

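The 10 genes described here encode sensors of viral and misplaced cellular nucleic acids and the proteins that carry their signal towards type I interferon. They were taken by symbol from the deposited table: Ifih1, Ddx58, Dhx58, Tlr3 and Zbp1 as sensors, Mavs as the adaptor, Tbk1 and Ikbke as the kinases, and Irf3 and Irf7 as the transcription factors. All 10 were found once each among the 49585 genes of the table. RNA was measured by bulk RNA-seq in the murine 4T1 triple-negative breast cancer cell line, in a pair of clones that each derive from a single cell, 4T1-HM with a high and 4T1-LM with a low metastatic capacity. Both clones received deferasirox (DFX), which chelates iron, at 50 μmol/L in DMSO or DMSO alone for 48 h, which gave the conditions HM_Ctrl, HM_DFX, LM_Ctrl and LM_DFX. Each condition holds 1 library, so differences between conditions cannot be set against a spread between cultures, and p-values are not given. Since 1 clone stands for each metastatic class, a property of the class and a property of that clone cannot be told apart.

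Many of these proteins are known to be scarce in uninfected cells. RIG-I (encoded by Ddx58) and MDA5 (Ifih1) bind double-stranded RNA in the cytosol and signal through MAVS on mitochondria, while TLR3 reads such RNA in endosomes. The kinases TBK1 and IKKε then phosphorylate IRF3 and IRF7, which switch on the gene for interferon beta. Secreted interferon acts back on the cell through the factor ISGF3, and several of the sensors, and IRF7 itself, are known targets of this feedback, whereas IRF3 and TBK1 are known as constitutive genes.

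Values are FPKM, fragments on a gene scaled to the length of its exons and to the size of the library, so levels of different genes can be compared roughly. The length was that of all annotated exons of a gene, and the length of the RNA made in these cells was not measured. The libraries held between 14363065 fragments (HM_DFX) and 21883855 fragments (LM_DFX), and the fragments behind the FPKM values of all 10 genes could be recovered. Intervals are exact 95% intervals on these fragments and cover counting error only. The labelled cell type was read from marker genes. Of 10 mammary carcinoma markers, 9 had an FPKM of at least 1 in every library and Krt5 was listed at 0. Their summed FPKM was lower with DFX, at 626 against 1892 in 4T1-HM and 1182 against 2439 in 4T1-LM, and their part in the results was not tested. Of the 9, 6 were at least 2-fold lower in HM_DFX and 0 higher, and in LM_DFX 3 were lower and 1, Krt19, was higher. Of all expressed genes 12.4% were lower and 6.93% higher in HM_DFX, and 8.72% were lower and 7.09% higher in LM_DFX. Among 9 genes, the counts of 0 and 1 higher lie near these shares. Of 12 leukocyte markers only Cd68, a lysosomal protein that other cells can also make, reached an FPKM of 1. It was higher with DFX in both clones, like most of the sensors, with log2 fold changes of 1.46 in 4T1-HM and 2.66 in 4T1-LM, and its part in the results was not tested. The other markers of this list, Ptprc and Itgam among them, summed to at most 0.617, in HM_DFX, and 6 to 8 of the 12 were at 0 in each library. Of 7 fibroblast markers only Pdgfra reached an FPKM of 1, and the list summed to between 3.51 and 5.64.

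The promoters of Ddx58 and Ifih1 are shown because, of the 8 members found in the RefSeq table of promoters (build GRCm38.p6), these 2 hold the core of the interferon-stimulated response element, searched as GAAANNGAAA on both strands. This core occurs in 3.44% of the 32851 promoters of the table. The promoter of Irf7, the member with the largest difference under DFX, is shown beside them and holds no match in this window. Each sequence runs 5′ to 3′ on the strand of the gene, from 250 bases before the start site to 50 after it, and capitals mark the match. The Ddx58 window is chr4:40239776-40240075, minus strand, with the core on the opposite strand at bases 253 to 262 of the window. The Ifih1 window is chr2:62646206-62646505, minus strand, with the core at bases 283 to 292. The Irf7 window is chr7:141266375-141266674, minus strand.
Ddx58: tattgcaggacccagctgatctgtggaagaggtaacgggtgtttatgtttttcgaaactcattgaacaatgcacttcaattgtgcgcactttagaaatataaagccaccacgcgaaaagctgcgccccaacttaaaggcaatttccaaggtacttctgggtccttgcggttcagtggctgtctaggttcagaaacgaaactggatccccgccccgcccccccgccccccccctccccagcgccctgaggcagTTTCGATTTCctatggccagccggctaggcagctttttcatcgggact
Ifih1: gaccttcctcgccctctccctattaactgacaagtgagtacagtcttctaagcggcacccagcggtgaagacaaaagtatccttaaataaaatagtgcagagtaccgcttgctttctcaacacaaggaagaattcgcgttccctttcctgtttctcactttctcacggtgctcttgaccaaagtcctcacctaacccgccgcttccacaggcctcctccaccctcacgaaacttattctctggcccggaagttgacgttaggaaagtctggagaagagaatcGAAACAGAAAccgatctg
Irf7: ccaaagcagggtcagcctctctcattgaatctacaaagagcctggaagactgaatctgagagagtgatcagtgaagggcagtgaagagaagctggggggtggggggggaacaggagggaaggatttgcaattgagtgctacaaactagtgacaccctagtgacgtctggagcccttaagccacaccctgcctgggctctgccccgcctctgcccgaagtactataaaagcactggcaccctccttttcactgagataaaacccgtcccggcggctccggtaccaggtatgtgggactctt
In both matches the core lies within the first 50 transcribed bases. The core of the hypoxia response element, ACGTG or GCGTG on either strand, was found for Ddx58, Mavs, Irf3 and Tbk1, that is 4 of the 8 members, and in 43.8% of all promoters. These matches describe the letters of the windows and not binding.

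Under DFX, the cytosolic RNA sensors, Zbp1 and Irf7 were higher in both clones, while Irf3 and Mavs were lower in both. Irf7 showed the largest ratio, 8.11-fold in 4T1-HM and 37.5-fold in 4T1-LM. Fold changes were called on the log2 ratio of FPKM + 1, which understates the change of low genes, at a threshold of 2-fold. By this rule 5 of the 10 genes were higher in HM_DFX than in HM_Ctrl (Ifih1, Ddx58, Dhx58, Zbp1 and Irf7), where 6.93% of the 12669 expressed genes (FPKM 1 or more in any library) were. In bulk RNA, a change in the share of cells that express a gene and a change per cell cannot be told apart. In LM_DFX against LM_Ctrl 6 were higher, the same 5 and Tlr3, against 7.09% of all genes. Lower by the threshold was Irf3 alone in HM_DFX, where 12.4% of all genes were, and none in LM_DFX, where 8.72% of all genes were. The median log2 fold change of the 10 genes was 0.69 in 4T1-HM and 2.11 in 4T1-LM, against −0.10 and −0.04 over all genes. Of all called genes in 4T1-HM 35.9% were higher and the rest lower. When libraries were scaled by median ratios, a step that moved the median of all genes there to 0.00, 46.7% were higher, and the counts of members stayed at 5 and 1. Zbp1 reached an FPKM of 1 only in the DFX libraries, and the other 9 reached it in all 4.

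**Figure D1:**
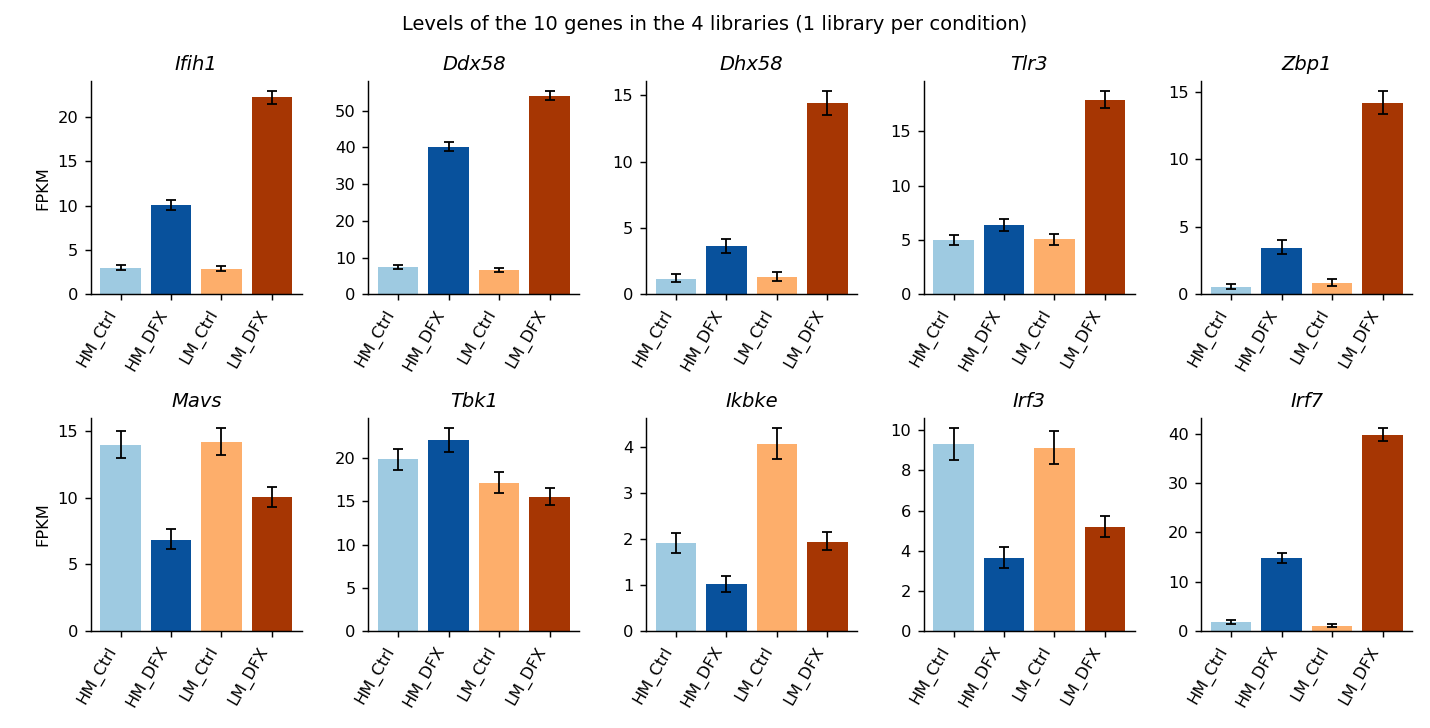
FPKM of each gene (vertical axes, from 0, with a scale of their own) in the 4 libraries, with exact 95% counting intervals as error bars and 1 library per bar. Both DFX bars stand above both control bars for Ifih1, Ddx58, Dhx58, Tlr3, Zbp1 and Irf7, and below them for Mavs and Irf3.

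Ddx58 encodes RIG-I, which binds short double-stranded RNA with a triphosphate end. Ddx58 (ENSMUSG00000040296, chromosome 4 from 40203773 to 40239828 of mm10) had an FPKM of 7.41 without and 40.2 with DFX in 4T1-HM, and of 6.59 and 54.1 in 4T1-LM. It was the most abundant of the 10 genes in both DFX libraries and stood behind Tbk1, Mavs and Irf3 in both controls. The ratio with DFX was 5.42 in 4T1-HM (interval 5.04 to 5.84) and 8.21 in 4T1-LM (7.61 to 8.86), or 2.29 and 2.86 on the log2 scale of FPKM + 1. Only 71 of all expressed genes had a larger rise in 4T1-HM, and 66 in 4T1-LM.

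Ifih1 encodes MDA5, which assembles along long double-stranded RNA. The FPKM of Ifih1 (ENSMUSG00000026896, chromosome 2 from 62595798 to 62646255) was 10.0 in HM_DFX against 3.01 in its control, and 22.2 in LM_DFX against 2.89. The controls differed by less than their counting error and LM_DFX was more than 2-fold above HM_DFX. These levels gave ratios of 3.34 (2.98 to 3.74) in 4T1-HM and 7.69 (6.91 to 8.57) in 4T1-LM.

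Dhx58 encodes LGP2, a related helicase without the signaling domains of the other receptors, which tunes their activity. Dhx58 (ENSMUSG00000017830, chromosome 11 from 100694884 to 100704271) rested on 65 and 170 fragments in HM_Ctrl and HM_DFX and on 68 and 1031 in LM_Ctrl and LM_DFX. This is an FPKM of 1.19, 3.62, 1.32 and 14.4. Both controls were low and LM_DFX was far above the rest. The ratio with DFX was 3.05 (2.28 to 4.12) in 4T1-HM and 10.9 (8.52 to 14.1) in 4T1-LM. The antisense gene Dhx58os shares 4.31% of the exon bases of Dhx58, and its FPKM was 1.27 in HM_DFX and at most 0.143 in the other libraries, and its part in the Dhx58 values was not tested. Whether fragments were counted by strand is not given in the sources used here.

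Tlr3, the endosomal receptor of double-stranded RNA, was called in 4T1-LM and not in 4T1-HM. The FPKM of Tlr3 (ENSMUSG00000031639, chromosome 8 from 45395665 to 45411080) was 5.01 and 6.38 without and with DFX in 4T1-HM, and 5.05 and 17.9 in 4T1-LM. The 2 controls and HM_DFX lay close together and LM_DFX stood alone. In 4T1-HM the ratio was 1.27 (1.12 to 1.45), under the threshold, and in 4T1-LM it was 3.54 (3.18 to 3.94).

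Zbp1 encodes a sensor of left-handed Z-form nucleic acids that can start necroptosis through the kinase RIPK3. Zbp1 (ENSMUSG00000027514, chromosome 2 from 173206612 to 173218923) was covered by 34 fragments without DFX and 175 with it in 4T1-HM, and by 46 and 1096 in 4T1-LM. Its FPKM was 0.575, 3.45, 0.829 and 14.2 in the same order. The lowest of the members by FPKM in both controls, Zbp1 reached the level of Dhx58 in LM_DFX. In LM_Ctrl its counting interval (0.607 to 1.11) overlapped those of Irf7 and Dhx58, so its place there was not resolved. The ratio with DFX was 6.0 (4.14 to 8.94) in 4T1-HM and 17.1 (12.8 to 23.5) in 4T1-LM.

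Mavs encodes the mitochondrial adaptor on which RIG-I and MDA5 converge, and was lower with DFX in both clones. Mavs (ENSMUSG00000037523, chromosome 2 from 131234063 to 131248025) stood at an FPKM of 14.0 and 14.2 in the controls, 6.85 in HM_DFX and 10.0 in LM_DFX. The ratio was 0.490 (0.429 to 0.558) in 4T1-HM and 0.707 (0.638 to 0.784) in 4T1-LM. On the log2 scale of FPKM + 1 the differences were −0.93 and −0.46, neither past the threshold, though with a pseudocount of 0.1 the first was past it.

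The kinases differed from each other. Tbk1 (ENSMUSG00000020115, chromosome 10 from 121546455 to 121586794), the constitutive kinase, was the most abundant member in both controls, with an FPKM of 19.8 (22.1 with DFX) in 4T1-HM and of 17.1 (15.5 with DFX) in 4T1-LM. Its ratios of 1.11 (1.02 to 1.22) in 4T1-HM and 0.905 (0.825 to 0.994) in 4T1-LM were the closest to 1 of all members. Ikbke (ENSMUSG00000042349, chromosome 1 from 131254343 to 131279606) encodes the inducible kinase IKKε. Its FPKM was 1.91 and 4.07 in the controls of 4T1-HM and 4T1-LM, and 1.02 and 1.95 with DFX, so that each DFX library was lower than its own control. The log2 differences of −0.53 and −0.78 were under the threshold, and the ratios without a pseudocount were 0.534 (0.432 to 0.659) and 0.478 (0.419 to 0.544). With a pseudocount of 0.1 the difference in 4T1-LM was past the threshold.

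The transcription factors differed in direction. The FPKM of Irf3 (ENSMUSG00000003184, chromosome 7 from 44997648 to 45002848) was 9.30 and 9.12 in the controls, and 3.64 in HM_DFX and 5.19 in LM_DFX. This gave ratios of 0.392 (0.329 to 0.464) in 4T1-HM, a called difference of −1.15 on the log2 scale, and of 0.569 (0.497 to 0.651) in 4T1-LM, −0.71 and not called. The FPKM of Irf7 (ENSMUSG00000025498, chromosome 7 from 141262706 to 141266481) was 1.82 and 1.06 in the controls, and 14.8 in HM_DFX and 39.8 in LM_DFX. IRF7 is the factor that amplifies interferon production. The ratio was 8.11 (6.66 to 9.95) in 4T1-HM and 37.5 (29.3 to 49.0) in 4T1-LM, with log2 fold changes of 2.48 and 4.31. Only 46 expressed genes had a larger rise in 4T1-HM and 13 in 4T1-LM. Irf7 shares 1.19% of its exon bases with Phrf1 on the opposite strand, whose FPKM was 23.2 against 12.4 in 4T1-HM and 15.1 against 10.3 in 4T1-LM, higher with DFX. Irf3 shares 2.56% with Bcl2l12, also on the opposite strand. The FPKM of Bcl2l12 was likewise lower with DFX, at 1.41 against 3.41 in 4T1-HM and 1.78 against 4.28 in 4T1-LM. The part of these neighbours in the Irf7 and Irf3 values was not tested. The exons of Tlr3 and Ikbke overlap unnamed gene models whose FPKM was at most 0.286.

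**Figure D2:**
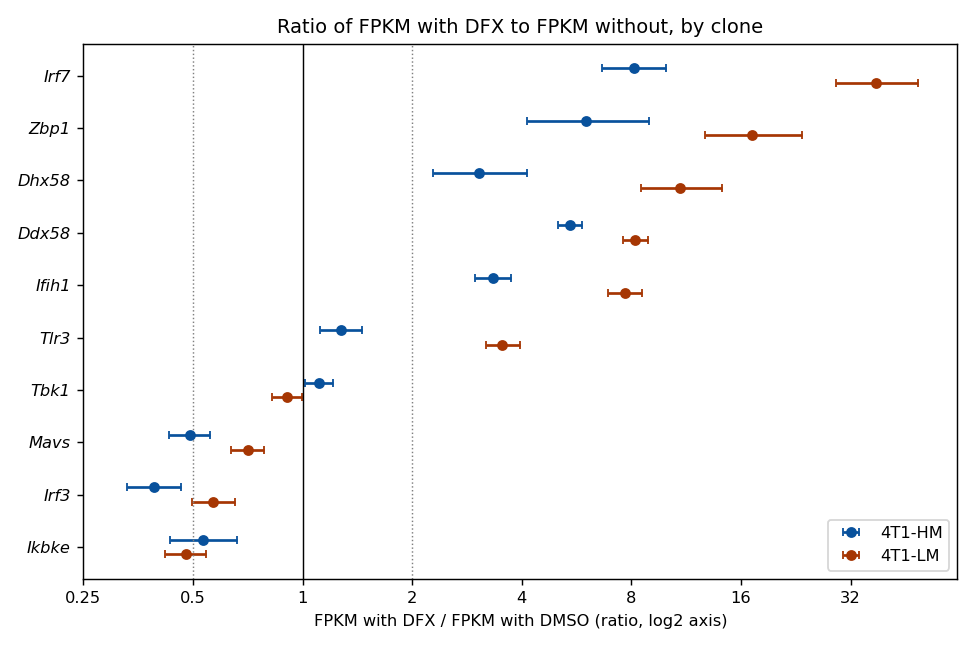
Ratio of FPKM with DFX to FPKM with DMSO (horizontal log2 axis) for each gene in 4T1-HM (blue) and 4T1-LM (brown), with exact 95% counting intervals and dotted lines at 2-fold. The intervals of the clones do not overlap for Irf7, Zbp1, Dhx58, Ddx58, Ifih1 and Tlr3, which lie further to the right in 4T1-LM, nor for Tbk1, Mavs and Irf3, and they overlap for Ikbke. The intervals cover counting error only, and the share of all genes without overlap is not given here.

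The order of the levels differed between control and DFX libraries. In HM_Ctrl and in LM_Ctrl the first 5 genes were Tbk1, Mavs, Irf3, Ddx58 and Tlr3, and neighbours in this order had counting intervals that did not overlap. Behind them the intervals of Ikbke (1.69 to 2.14) and Irf7 (1.5 to 2.18) overlapped in HM_Ctrl, as did those of Dhx58 (1.03 to 1.67) and Irf7 (0.815 to 1.36) in LM_Ctrl. Irf7 also overlapped Dhx58 (0.916 to 1.51) in HM_Ctrl, and Zbp1 (0.607 to 1.11) overlapped both Dhx58 and Irf7 in LM_Ctrl. In LM_DFX the order began with Ddx58, Irf7, Ifih1 and Tlr3, ahead of Tbk1. Tbk1, Dhx58 and Zbp1 had overlapping intervals there, and Mavs and Irf3 stood at the eighth and the ninth place. In HM_DFX Tbk1 was second behind Ddx58, and Irf3, Dhx58 and Zbp1 (3.64, 3.62 and 3.45) overlapped.

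**Figure D3:**
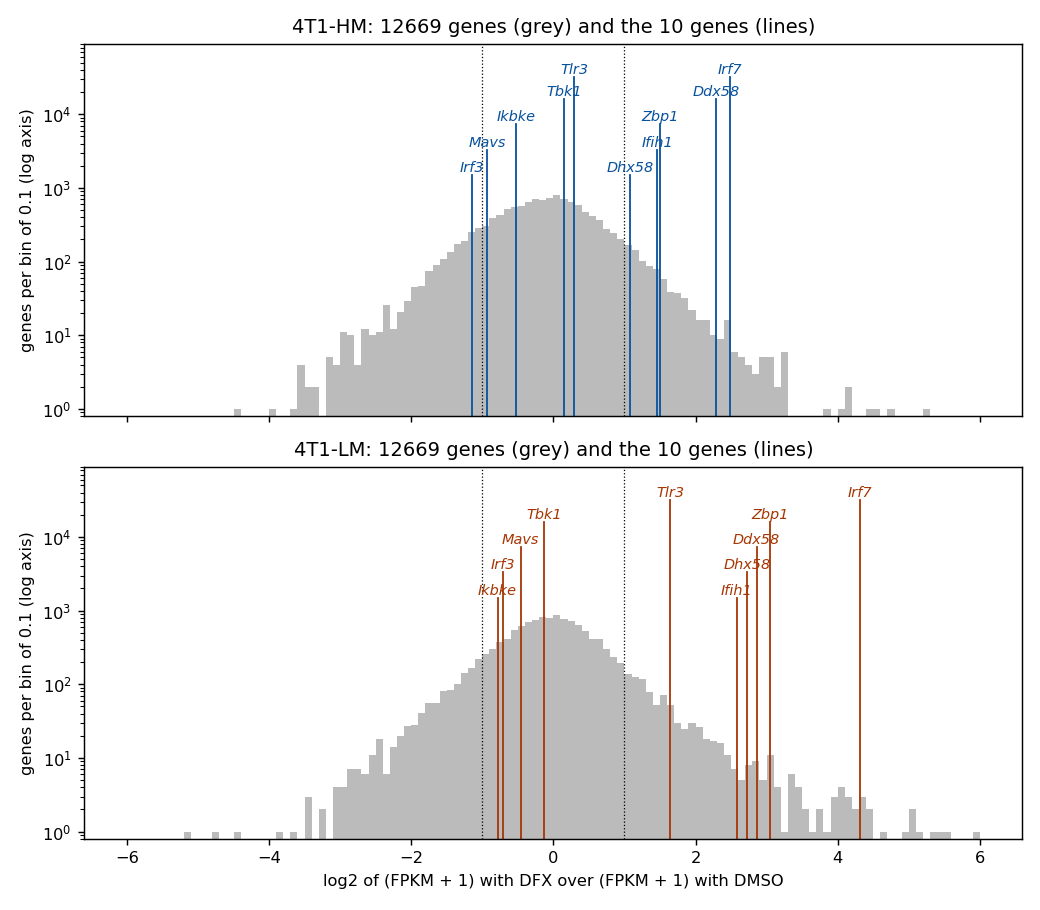
Distribution of the log2 ratio of FPKM + 1 with DFX over DMSO for the 12669 expressed genes (grey, number of genes per bin on a log axis) in 4T1-HM (top) and 4T1-LM (bottom), with 1 line for each of the 10 genes and dotted lines at 2-fold. Irf7 and Ddx58 lie in the right tail in both clones, and Mavs and Irf3 lie left of 0.

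Without DFX the counting interval of the ratio between the clones included 1 for 6 of the 10 genes, and not for Ddx58, Irf7, Tbk1 and Ikbke. The share of all genes whose interval includes 1 is not given here, so this count only describes the 10 genes. None of the 10 was called in HM_Ctrl against LM_Ctrl, where 3.65% of all genes were higher and 3.15% lower. The ratio of HM_Ctrl to LM_Ctrl was 0.992 for Tlr3 (0.865 to 1.14), 0.985 for Mavs (0.890 to 1.09), 1.02 for Irf3 (0.900 to 1.15) and 1.04 for Ifih1 (0.902 to 1.20). The ratio furthest from 1 was that of Ikbke, at 0.468 (0.405 to 0.540), a log2 difference of −0.80 that passed the threshold only with a pseudocount of 0.1 or at 1.5-fold. Irf7 had a ratio of 1.71 (1.25 to 2.37) from 115 and 63 fragments.

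Under DFX several genes were lower in 4T1-HM. HM_DFX was at least 2-fold below LM_DFX for 5 of the 10 genes, Ifih1, Dhx58, Zbp1, Tlr3 and Irf7, where 5.05% of all genes were, and above it for none, where 3.31% were. LM_DFX exceeded HM_DFX by a factor of 4.11 (3.50 to 4.85) for Zbp1, 3.98 (3.38 to 4.71) for Dhx58, 2.81 (2.54 to 3.11) for Tlr3 and 2.70 (2.50 to 2.92) for Irf7. For Ddx58 the factor was 1.35 (1.3 to 1.40). With 75th percentile scaling 4 of the 5 genes passed, and Ifih1 was just short of the threshold. Tbk1 was the one member that was higher in HM_DFX, with a ratio to LM_DFX of 1.42 (1.3 to 1.55).

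The response itself was compared as the log2 fold change in 4T1-HM minus that in 4T1-LM. This difference was −1.83 for Irf7, −1.65 for Dhx58, −1.56 for Zbp1, −1.35 for Tlr3 and −1.12 for Ifih1. These 5 of the 10 genes passed 2-fold in this direction, where 5.38% of all genes did, and none passed it in the other, where 3.52% did. Ddx58 (−0.57) lay below 0 but short of 2-fold. Mavs (−0.47) and Irf3 (−0.44) also had negative differences, as their levels with DFX were lower, relative to the control, in 4T1-HM. Thus 8 members had a lower value in 4T1-HM, with a median of −0.84 over all 10, while 56.5% of all genes were below 0 and their median was −0.08. Tbk1 (0.28) and Ikbke (0.26) were the 2 members above 0. Each of these differences rests on 1 library per condition, and the interaction was not tested.

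Other genes of these pathways were read from lists of known components. Counts are of expressed genes, first in 4T1-HM and then in 4T1-LM. Of 25 regulators and adaptors of RIG-I-like receptors, 4 and 5 were at least 2-fold higher with DFX and 3 and 3 lower, with medians of 0.29 and −0.04. Medians of all genes were −0.10 and −0.04. Of all expressed genes 6.93% and 7.09% were at least 2-fold higher, and 12.4% and 8.72% were lower. These shares apply to all lists below, and small counts can lie near them, as the 3 of 25 lower in 4T1-HM do. Trim25, a ubiquitin ligase that activates RIG-I, had an FPKM of 73.2 against 21.8 in 4T1-HM and of 102 against 19.5 in 4T1-LM. Ddx60, a helicase linked to RIG-I, had log2 fold changes of 1.72 and 2.79. Rnf5, a ubiquitin ligase that limits antiviral signaling, had values of −1.27 and −1.26. Among 18 kinase scaffolds and TRAF proteins, 4 were higher in each clone, with 1 lower in 4T1-HM and 0 in 4T1-LM and medians of 0.48 and 0.25. Tank, a scaffold of TBK1, had 1.31 and 0.62, and Traf2 had 1.16 and 1.04. The other toll-like receptors of nucleic acids, Tlr7, Tlr8, Tlr9 and Tlr13, did not reach an FPKM of 1. Of the 8 expressed genes of that list, which are adaptors, chaperones and other partners of these receptors, 1 and 2 were higher and 2 and 0 lower, with medians of −0.03 and −0.13. Ticam1, the adaptor of TLR3, had log2 fold changes of 1.44 and 1.60.

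Among the enzymes that act on double-stranded RNA no gene was at least 2-fold lower, with 6 and 10 of 17 higher and medians of 0.73 and 1.46. Oasl1 had an FPKM of 84.6 against 7.81 in 4T1-HM and of 90.4 against 3.44 in 4T1-LM, and Oas1a, a maker of the second messenger of RNase L, had log2 fold changes of 2.34 and 3.72. Members of the Oas family have close paralogs, so counting could split their reads. In cytosolic DNA sensing 4 and 5 of 18 genes were higher and 3 and 3 lower, with medians of −0.46 and −0.32. Ifi203, Ifi204, Ifi207 and Mndal, all higher in both clones, belong to 1 family of similar genes. Tmem173, which encodes STING, had an FPKM of 3.72 against 10.5 in 4T1-HM and of 9.03 against 12.4 in 4T1-LM, with log2 fold changes of −1.28 and −0.42. Mb21d1, which encodes the DNA sensor cGAS and is named after its values were seen, had 0.06 and −0.12. Of 8 cell death partners of Zbp1 none was at least 2-fold higher and 1 and 2 were lower, with medians of −0.40 and −0.01, and Gsdmd, the pore-forming gasdermin D, had −2.02 and −1.02. Ripk3, named after its values were seen, was listed at 0 in all libraries.

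The products of the pathway were read last. Of 20 type I and III interferon genes, 17 were listed at 0 in every library. Ifnb1 (ENSMUSG00000048806, chromosome 4 from 88522025 to 88522774), which encodes interferon beta, had 37 fragments in HM_DFX and 60 in LM_DFX, against 0 and 1 in their controls, an FPKM of 3.43 in HM_DFX and of 3.66 in LM_DFX. Against the 3 fragments that a count of 0 allows in HM_Ctrl the ratio was 14.4, and by the exact interval on both counts HM_DFX was at least 11.1-fold higher. In 4T1-LM the ratio was 43.1, with a counting interval from 7.45 to 1732. The ratio of HM_DFX to LM_DFX for Ifnb1 was 0.940 (0.606 to 1.44). Ifnab and Ifna16 had 3 fragments and 1 fragment in HM_DFX and 0 elsewhere. A list of other interferon regulatory factors, which also holds the IRF2-binding proteins Irf2bp1 and Irf2bp2, had 3 of 8 genes higher in each clone, with medians of 0.50 and 0.96. The 1 gene lower, in 4T1-LM, was Irf2bp1 (−1.06), so no regulatory factor of this list, which leaves out Irf3 and Irf7, was called lower. Higher were Irf9, the DNA-binding part of ISGF3, with 1.72 and 2.86, Irf5 with 1.16 and 1.67 and Irf1 with 1.02 and 1.31. Of 28 interferon-stimulated genes, 18 were higher in 4T1-HM and 26 in 4T1-LM, with medians of 1.90 and 3.25 and none at least 2-fold lower. Cxcl10, an interferon-induced chemokine, had log2 fold changes of 4.16 and 5.50, and Usp18, which dampens interferon signaling, had 3.18 and 5.18.

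**Figure D4:**
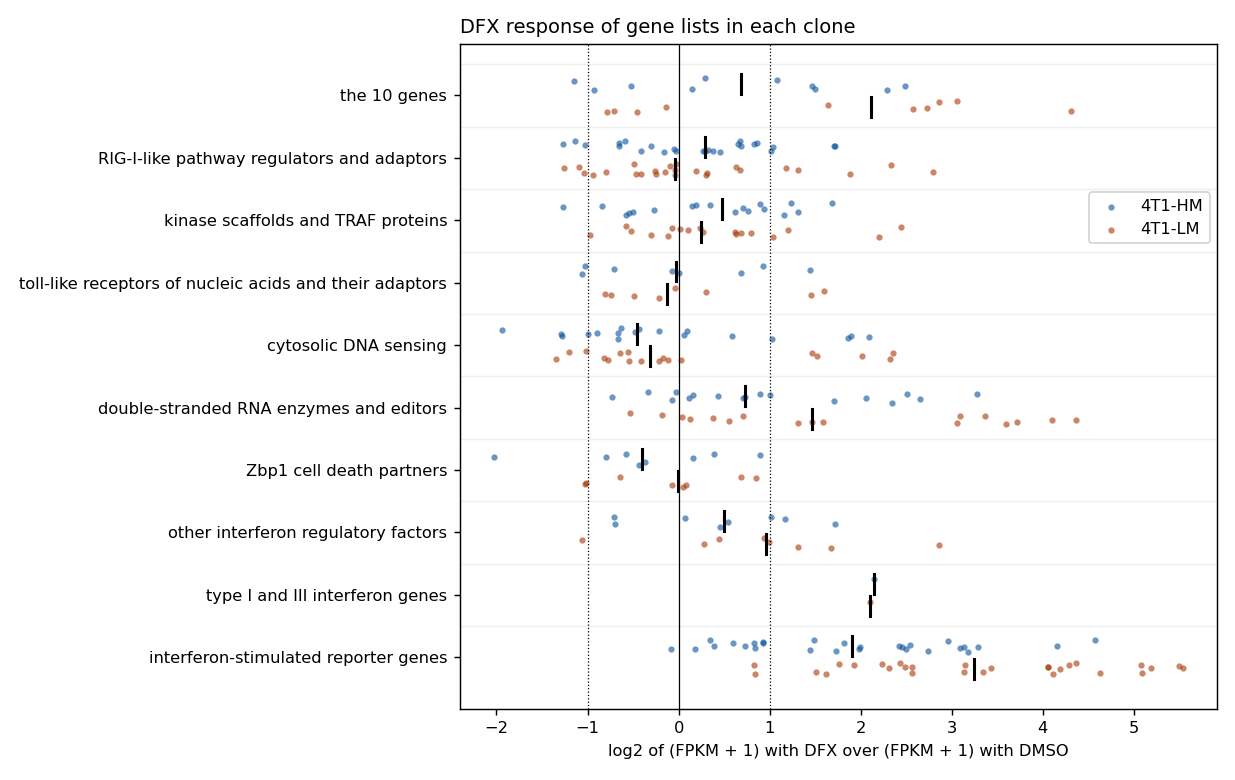
Log2 ratio of FPKM + 1 with DFX over DMSO (horizontal axis) for each expressed gene of the lists in 4T1-HM (blue) and 4T1-LM (brown), with the median of each list as a black bar and dotted lines at 2-fold. The medians of the interferon-stimulated list are 1.90 and 3.25, those of the 10 genes 0.69 and 2.11, and those of cytosolic DNA sensing −0.46 and −0.32.

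For 8 members whose log2 levels spanned at least 1 over the 4 libraries, the protein-coding genes with the nearest profile were sought, by the Euclidean distance between log2 values of FPKM + 1 centred on their mean. With 4 libraries this is a description. Closest to Irf7 were Rtp4 (distance 0.21), Nos2 (0.24) and Cmpk2 (0.38). Closest to Ddx58 were Nr1d1, Oas3 and Car6, with distances between 0.21 and 0.24. Phf11d was the nearest gene for both Dhx58 (0.23) and Zbp1 (0.20), followed by Mx1 and Iigp1 for Dhx58 and by Gbp7 and Oas2 for Zbp1. Closest to Tlr3 were Gbp5 (0.12), Efhd2 and H2-Q1. Ifih1 lay nearest to Cd68 (0.06), whose FPKM was 37.4 against 12.9 in 4T1-HM and 83.1 against 12.3 in 4T1-LM, and then to Dtx3l and Plat. Irf3 was nearest to Tcea2, Gm14326 and Pyurf, at distances of at most 0.04, and Ikbke to Notch1, Npm3 and Serpinh1. FPKM + 1 understates the change of low genes, so a near profile need not have a like ratio. For example, Tcea2 had an FPKM of 0.154 against 1.59 in 4T1-HM, where Irf3 had 3.64 against 9.30. Car6 had 6.17 against 0.296 there, where Ddx58 had 40.2 against 7.41. Gbp5 had 2.12 against 0.0479 in 4T1-LM, where Tlr3 had 17.9 against 5.05.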

How the data were processed

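Poly(A) RNA was sequenced from 4 libraries, 1 per condition, with a directional kit, and grouped by the labels. Per the labels and the methods, the authors checked reads with FastQC, trimmed them with Trimmomatic, aligned them to mm10 with HISAT2 and counted with featureCounts, in versions not given in the sources used here. The authors deposited FPKM per gene, genes at 0 included, and all per-sample columns were used.

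Library totals were solved as the values at which FPKM times exon length (GENCODE M21) gave whole fragments, within 0.02. This held in all libraries for 96.8% of the 18235 genes above 0 with matching coordinates. For Tbk1 the length was solved from its own values. Intervals are exact (Clopper-Pearson) at 95%, conditional on the sum of both libraries. The study called genes with edgeR, which was not repeated here, as the spread between cultures cannot be estimated.

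Fold changes are log2 ratios of FPKM + 1 over the 12669 expressed genes (FPKM 1 or more in any library), called at 2-fold. The members, lists, named genes and settings were chosen with earlier results of these data known. Named genes are the 10 members, every interferon gene above 0, and some of the up to 4 called genes per list and direction by size. The largest of these were not always taken. Sqstm1 (log2 fold changes of 1.68 in 4T1-HM and 2.44 in 4T1-LM) and Rnaseh2c (−1.94 and −1.35) were passed over. The rule also names the 3 nearest profiles of each member whose log2 level spanned at least 1. Cell type markers at or near 0, genes that overlap a member, Irf2bp2, Mb21d1, Ripk3, Pdgfra and the toll-like receptors below FPKM 1 are outside this rule and were named after their values were seen. The code was tested on simulated data. Alternatives were a pseudocount of 0.1, other filters, median-ratio and 75th percentile scaling, thresholds of 1.5-fold and 4-fold, and protein-coding genes only. Python 3.11.15, SciPy 1.17.1 and pandas 2.3.3 were used.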

Additional observations from a re-analysis of the deposited data

Results flagged for a closer look

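Tbk1 had opposite directions under DFX in the clones, with FPKM ratios of 1.11 in 4T1-HM and 0.905 in 4T1-LM, and the log2 fold change in 4T1-HM minus that in 4T1-LM was 0.28. With median-ratio scaling the log2 fold changes of Tbk1 were 0.28 in 4T1-HM and −0.07 in 4T1-LM, in place of 0.15 and −0.14. Krt19, a keratin from the carcinoma markers, also had opposite directions, with a difference of −1.33 on this scale. With no replicate cultures, neither difference was tested.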

How the results depend on the processing

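Each condition holds 1 library, so leaving out a library was not possible. No paired analysis was possible because the groups share fewer than 2 replicate numbers. Of 150 values of single members under another pseudocount or scaling, 149 kept their direction. The exception was Irf3 between the controls, at 0.02 as reported and at −0.02 with 75th percentile scaling. A pseudocount cannot turn the direction of a fold change between libraries, so for those values the direction was fixed beforehand. The scaling factors lay between 0.956 and 1.051, so a scaling could turn the direction of small values only. In size, 19 of the 150 moved by more than the half-width of their counting interval on the log2 scale. With a pseudocount of 0.1 the median of the members was 0.94 in 4T1-HM and 2.35 in 4T1-LM under DFX, and −1.0 for HM_DFX against LM_DFX (−0.81 as reported). The members lower with DFX were then 2 in 4T1-HM and 1 in 4T1-LM, and 1 was lower in HM_Ctrl than in LM_Ctrl. Of all genes 18.9%, 13.6% and 5.32% were lower in these comparisons. At 1.5-fold the numbers of members were 2, 2 and 1, against 26.0%, 20% and 8.70% of all genes. At 4-fold, 2 members were higher and 0 lower in HM_DFX against HM_Ctrl (0.876% and 1.31% of all genes), and 0 were lower in HM_DFX than in LM_DFX (0.466%). Both filters and the restriction to protein-coding genes kept every member, so the counts of members under them were fixed beforehand. The scalings left the counts as reported, except for 4 in place of 5 lower in HM_DFX than in LM_DFX with the 75th percentile. A member with few fragments, such as Zbp1 with 34 in HM_Ctrl, has a wide interval, and variation between cultures cannot be measured from these libraries.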
